A study of Mus musculus with 9 samples.

Results

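Prostaglandins and leukotrienes are short-lived lipid mediators, together called eicosanoids, that cells make from arachidonic acid released from their membranes. The 10 genes described here encode enzymes and receptors of both branches: Ptgs1, Ptgs2, Ptges, Hpgds, Ptger2, Ptger4, Alox5, Alox5ap, Ltb4r1 and Alox15. They were picked by symbol for these known roles, with earlier results of these data known. All 10 were among the 20926 genes of the expression matrix, and all 10 were among the 12366 genes that passed a filter on low values and were tested.

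The data were RNA sequencing of blood from male DBA/1 mice, 7 weeks old when they were assigned to groups, with 3 libraries in each of 3 groups. The Ctrl mice had no arthritis and no irradiation. Collagen-induced arthritis, a model of rheumatoid arthritis raised by injecting chick type II collagen in Freund's adjuvant, was given to the CIA mice without irradiation. In CIA+THz mice with this arthritis, the swollen ankle joints were exposed to 0.1 THz waves, 30 min each day for 14 days, under isoflurane. Whether the Ctrl and CIA mice were also anaesthetised is not given in the sources used here, so irradiation and anaesthesia cannot be told apart in the comparisons with CIA+THz. The labels call the samples blood leukocytes, while the extraction text speaks of total blood RNA. The red cell gene Alas2 alone took between 11.4% and 16.7% of the summed values of a library, so the libraries also held RNA of the red cell lineage. The unit is FPKM, fragment numbers adjusted for transcript length and for the size of the library, here divided by 1 factor per library (0.847 to 1.24) and called rescaled FPKM. The number of fragments behind each value is unknown, but the steps between low values put the depth of the other libraries at 1.01 to 1.87 times that of Ctrl library 1, and the 3 CIA+THz libraries were the deepest at 1.36 to 1.87 times. Nothing in the labels states that the libraries of a group came from separate animals, so the p-values measure the spread between these samples.

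In the prostaglandin branch, the cyclooxygenases Ptgs1 and Ptgs2 convert arachidonic acid to prostaglandin H2, from which Ptges makes prostaglandin E2 and Hpgds makes prostaglandin D2. Prostaglandin E2 acts on immune cells largely through the receptors EP2 and EP4, encoded by Ptger2 and Ptger4, which both raise cyclic AMP. In the leukotriene branch, 5-lipoxygenase (Alox5) works together with its activating protein (Alox5ap) in neutrophils and monocytes, and leukotriene B4 draws neutrophils to inflamed tissue through its receptor BLT1, encoded by Ltb4r1. Alox15 oxidises arachidonic acid at other positions. Cyclooxygenase inhibitors are a standard treatment of arthritis pain.

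Across the 3 groups, limma's moderated F-test gave an unadjusted p under 0.05 for 6 of the 10 genes: Alox5, Alox5ap, Ltb4r1, Ptger2, Ptger4 and Ptgs1. Among all genes tested, 21.3% had such a p. None of the 10 had a Benjamini-Hochberg adjusted p under 0.05 in limma, which 2.53% of all genes had, and the smallest was 0.136 for Ptger4. The count of 6 was 3 with FPKM as deposited, without a trend in the fit, in an analysis of variance on linear values, or without CIA library 2. In no comparison between 2 groups did all 10 genes have the same sign.

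The 10 genes covered a wide range of levels, compared here per transcript length as rescaled FPKM over all 9 libraries. Alox5ap was the most abundant, with a mean of 315 and a range of 237 to 418. Ptgs1 followed with a mean of 118 (90.2 to 146) and Alox5 with 60.7 (40.3 to 86.2). The ranges of these 3 genes did not overlap with each other or with the genes below them. Alox15 (mean 27.2) and Ltb4r1 (mean 23.9) came next and could not be ordered, since their ranges of 18.1 to 37.4 and 17.1 to 36.3 nearly coincided. Ptger4 (mean 7.79, range 3.74 to 11.0) and Ptger2 (mean 4.39, range 2.71 to 5.44) overlapped with each other. Ptges, Ptgs2 and Hpgds were near the lower limit of the data, with means of 0.408, 0.384 and 0.211, and each was listed at 0 in some libraries. Of 15 genes that every cell or every leukocyte uses, none was listed at 0 in any library. Their lowest value was 5.30 (Hprt, Ctrl library 3), so they do not show how well genes near the lower limit were detected.

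**Figure D1:**
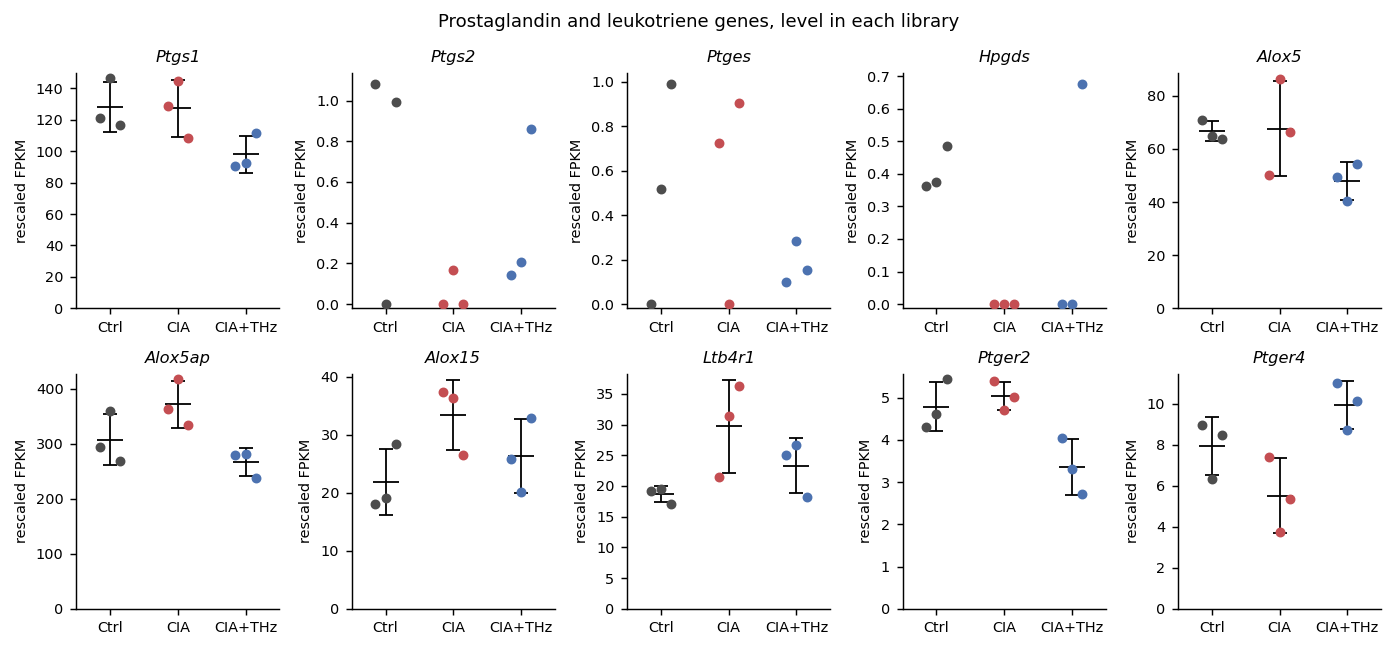
Rescaled FPKM (linear vertical axes, each with its own scale) of the 10 genes in the 3 libraries of Ctrl, CIA and CIA+THz. Points are libraries, long ticks and bars are the mean and SD of 3 libraries, and no mean is drawn for Ptgs2, Ptges and Hpgds, which were listed at 0 in some libraries. Ptger4 lies at 8.71 to 11.0 in CIA+THz, above the 3.74 to 7.39 of CIA, and Ltb4r1 lies at 21.5 to 36.3 in CIA, above the 17.1 to 19.6 of Ctrl.

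Ptgs1, the cyclooxygenase that most cells carry at rest and that platelets use to make thromboxane, was the only abundant enzyme of the prostaglandin branch (chr2:36230426-36252272, plus strand, GENCODE on GRCm38). Its rescaled FPKM was 121, 146 and 117 in the Ctrl libraries, 128, 144 and 108 in the CIA libraries and 90.2, 92.4 and 112 in the CIA+THz libraries. Ctrl and CIA covered nearly the same range, while all 3 CIA+THz libraries lay below all 3 Ctrl libraries and overlapped with CIA. With FPKM as deposited, CIA+THz overlapped with Ctrl as well. The log2 fold change, on the scale of log2(rescaled FPKM + 0.1) as for every fold change here, was -0.02 ± 0.15 (SE) between CIA and Ctrl. It was -0.37 ± 0.14 in CIA+THz against CIA (unadjusted p = 0.0327, adjusted p = 0.336 by limma) and -0.39 ± 0.13 in CIA+THz against Ctrl (unadjusted p = 0.0205, adjusted p = 0.198 by limma). Neither comparison with CIA+THz reached the fold part of the criterion used between groups, which was an unadjusted p under 0.05 together with an absolute log2 fold change above 0.67. With FPKM as deposited, these changes shrank to -0.09 (unadjusted p = 0.482) and -0.08 (unadjusted p = 0.479), because the rescaling lowered CIA+THz by 0.28 against CIA and by 0.31 against Ctrl on the log2 scale for every gene. The annotated transcript Gm43621 shares 148 exonic bases with Ptgs1 on the opposite strand.

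The 9 platelet markers, which include Pf4 and Itga2b, were lower in the same libraries as Ptgs1. Their summed rescaled FPKM was 4260 to 5200 in Ctrl, 4071 to 5110 in CIA and 3404 to 4109 in CIA+THz, and all 9 had a lower mean in CIA+THz than in either other group. With FPKM as deposited, 7 of the 9 were lower than in CIA and 3 of the 9 were lower than in Ctrl. No listed platelet marker was at 0 in all libraries, and the part of platelets in the level of Ptgs1 was not tested. In bulk blood, fewer cells of a type and less RNA per cell cannot be told apart, which holds for every gene described here.

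Ptgs2, the cyclooxygenase that inflammatory signals switch on, was barely detected (chr1:150100031-150108227, plus strand). Its rescaled FPKM was 1.08, listed at 0 and 0.995 in the Ctrl libraries, listed at 0, 0.167 and listed at 0 in the CIA libraries, and 0.142, 0.207 and 0.861 in the CIA+THz libraries. All 3 groups overlapped, and the fitted log2 fold changes, which depend on the added 0.1, were -1.87 ± 1.05 (SE) in CIA against Ctrl (unadjusted p = 0.119) and 1.58 ± 0.71 in CIA+THz against CIA (unadjusted p = 0.0626). Neither passed the criterion, but each did under other settings. The change of CIA against Ctrl was -3.03 and past it without Ctrl library 2, the Ctrl library at 0. The change of CIA+THz against CIA was past it with FPKM as deposited (1.74), with an added 0.01 (3.55), without CIA library 2 (2.05) and without CIA+THz library 1 (1.97). Ptgs2 was above 0 in 1 CIA library and in all 3 CIA+THz libraries. The relative depths were 1.01 to 1.28 in CIA and 1.36 to 1.87 in CIA+THz, and the part of depth in these zeros was not tested. The log2 ratio of Ptgs2 to Ptgs1 was -10.33, -9.08 and -10.08 in CIA and -8.54, -8.24 and -6.86 in CIA+THz, with no overlap, a difference of 1.95 and an exact permutation p of 0.1 (0.24 adjusted over the 12 ratio tests described with the receptors), although 2 of the CIA values are set by the added 0.1. The upstream sequences of the 2 cyclooxygenase genes are shown because they encode the same enzymatic step at levels at opposite ends of the list. Each is the 250 bases before the RefSeq start on GRCm38.p6, at chr2:36230176-36230425 (plus strand) for Ptgs1 and at chr1:150099781-150100030 (plus strand) for Ptgs2, and capitals mark matches to the motifs named next.
Ptgs1: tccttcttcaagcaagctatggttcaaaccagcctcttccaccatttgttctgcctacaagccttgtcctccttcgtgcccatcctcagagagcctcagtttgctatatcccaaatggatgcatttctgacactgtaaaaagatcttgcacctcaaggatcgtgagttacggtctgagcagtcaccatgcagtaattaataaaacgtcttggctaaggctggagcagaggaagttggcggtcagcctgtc
Ptgs2: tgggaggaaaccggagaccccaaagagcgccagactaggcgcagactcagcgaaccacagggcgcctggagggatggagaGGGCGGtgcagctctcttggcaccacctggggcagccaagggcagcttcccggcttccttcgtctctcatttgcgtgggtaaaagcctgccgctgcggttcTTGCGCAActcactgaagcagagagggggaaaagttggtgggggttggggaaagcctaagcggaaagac
Motifs were searched on both strands as the cAMP response element core CGTCA, the E-box CACGTG, a C/EBP-like site TTGCNNAA, the GC box GGGCGG, the CCAAT box CCAAT and the TATA box TATAAA. Upstream of Ptgs2 there was 1 GC box, 170 to 165 bases before the start, and the C/EBP-like letters 69 to 62 bases before the start, which read the same way on both strands. Upstream of Ptgs1 none of the letters searched occurred in this window. Bases after the RefSeq start were not searched, so a motif absent from a window may still lie beyond it. Of 32851 RefSeq promoters of the same length, 32.7% held the GC box and 9.56% the C/EBP-like letters. The Ptgs2 sequence was 61.6% G and C with 13 CpG pairs, and that of Ptgs1 was 48% with 5, against medians of 52.4% and 6 over all promoters.

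Ptges, the inducible synthase of prostaglandin E2, was also low in blood (chr2:30889471-30929863, minus strand). Its rescaled FPKM was listed at 0, 0.518 and 0.990 in Ctrl, 0.727, listed at 0 and 0.905 in CIA, and 0.0988, 0.282 and 0.155 in CIA+THz. The groups overlapped, and the log2 fold change of -0.70 ± 0.92 (SE) in CIA+THz against CIA was smaller than its error.

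Hpgds, the haematopoietic synthase of prostaglandin D2, was the gene of the list with the lowest mean (chr6:65117293-65144908, minus strand). It was found in all 3 Ctrl libraries, with rescaled FPKM of 0.363, 0.374 and 0.485, and was listed at 0 in all 3 CIA libraries. Of the CIA+THz libraries, 2 listed it at 0 and library 3 held 0.675. The Ctrl libraries alone were enough for Hpgds to pass the filter on low values. Its test in CIA against Ctrl is therefore not independent of that filter and is not evidence of a fall. In CIA against Ctrl, Hpgds was the only one of the 10 genes past the criterion, which 9.04% of all genes passed, with an unadjusted p of 0.00207 and an adjusted p of 0.0944 by limma. The fitted log2 fold change of -2.33 ± 0.50 (SE) depends on the added 0.1 and was -0.49 with an added 1, below the fold part of the criterion. The relative depths of the Ctrl libraries (1 to 1.10) and the CIA libraries (1.01 to 1.28) overlapped. Hpgds is known from mast cells and other blood cell lineages. The 8 basophil or mast cell markers summed to 604 to 811 in Ctrl, 552 to 738 in CIA and 444 to 547 in CIA+THz, and 6 of the 8 were lower in CIA than in Ctrl. Hdc made up 84.8% to 94.4% of these sums, and without it they were 53.0 to 78.4 in Ctrl, 41.3 to 55.4 in CIA and 58.6 to 73.0 in CIA+THz, so the sum of the other 7 was lowest in CIA, with some overlap with Ctrl. Between CIA+THz and CIA, 5 of the 8 were higher in CIA+THz. Their part in the Hpgds values was not tested.

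The receptors Ptger2 and Ptger4 both bind prostaglandin E2, and in CIA+THz against CIA one was higher and the other lower. Ptger4, the gene of EP4, had rescaled FPKM of 8.97, 6.34 and 8.47 in the Ctrl libraries, 7.39, 3.74 and 5.37 in the CIA libraries and 11.0, 8.71 and 10.1 in the CIA+THz libraries. All 3 CIA+THz libraries lay above all 3 CIA libraries, while Ctrl overlapped with both. The mean was 9.94 ± 1.15 (SD, n = 3) in CIA+THz and 5.50 ± 1.83 in CIA, a ratio of 1.81. Ptger4 rose in CIA+THz against CIA, with a log2 fold change of 0.89 ± 0.26 (SE) and an unadjusted p of 0.0111, and it was the only one of the 10 genes past the criterion there, against 4.54% of all genes. Its adjusted p was 0.265 by limma, and 0.111 to 0.520 over the other settings. Without CIA library 2, in which Ptger4 was lowest, the change was 0.64 and no longer past the fold part of the criterion. With FPKM as deposited it was 1.16. Between CIA and Ctrl, Ptger4 differed by -0.56 ± 0.29 (unadjusted p = 0.0913), and without CIA library 1 it was -0.79 and past the criterion.

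Ptger2, the gene of EP2, had rescaled FPKM of 4.30, 4.62 and 5.44 in Ctrl, 5.39, 4.72 and 5.01 in CIA and 4.04, 3.32 and 2.71 in CIA+THz. Ctrl and CIA overlapped, and all 3 CIA+THz libraries lay below every library of the other groups. With FPKM as deposited, CIA+THz overlapped with both groups. CIA differed from Ctrl by a log2 fold change of 0.08 ± 0.20 (SE), and CIA+THz differed from CIA by -0.59 ± 0.20 (unadjusted p = 0.0238, adjusted p = 0.306 by limma) and from Ctrl by -0.51 ± 0.22 (unadjusted p = 0.0533). The change against CIA fell short of the fold part of the criterion, was -0.73 and past it without CIA+THz library 1, and was -0.32 (unadjusted p = 0.212) with FPKM as deposited.

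The ratio of Ptger4 to Ptger2 within a library does not depend on the scaling of that library, apart from the added 0.1. Its log2 value was 1.04, 0.45 and 0.63 in Ctrl, 0.45, -0.33 and 0.10 in CIA and 1.42, 1.37 and 1.86 in CIA+THz. The 2 receptors were at about equal levels in CIA, and in all 3 CIA+THz libraries the ratio stood above every library of the other groups. The mean ratio differed by 1.48 on the log2 scale between CIA+THz and CIA and by 0.84 between CIA+THz and Ctrl, each with an exact two-sided permutation p of 0.1, the smallest that 3 libraries against 3 allow. In all, 12 such tests were run, of 4 gene pairs in 3 comparisons, and the Benjamini-Hochberg adjusted value of these 2 exact tests was 0.24. In CIA against Ctrl the ratio differed by -0.63 with an exact p of 0.2.

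The upstream sequences of the 2 receptor genes are shown because the genes share a ligand and differed in direction. They are the 250 bases before the RefSeq start on GRCm38.p6, at chr15:5244188-5244437 (minus strand) for Ptger4 and at chr14:44987861-44988110 (plus strand) for Ptger2, with matches to the same motifs in capitals.
Ptger4: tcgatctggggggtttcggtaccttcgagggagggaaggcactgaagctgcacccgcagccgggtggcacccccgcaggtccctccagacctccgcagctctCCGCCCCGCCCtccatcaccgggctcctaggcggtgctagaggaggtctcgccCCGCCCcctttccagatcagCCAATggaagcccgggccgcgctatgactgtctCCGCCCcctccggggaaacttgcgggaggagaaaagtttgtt
Ptger2: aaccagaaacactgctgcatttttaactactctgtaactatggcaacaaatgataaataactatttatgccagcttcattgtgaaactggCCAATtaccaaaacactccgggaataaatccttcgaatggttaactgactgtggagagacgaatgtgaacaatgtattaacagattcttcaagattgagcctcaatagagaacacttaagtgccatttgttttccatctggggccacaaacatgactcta
Upstream of Ptger4 there were 4 GC boxes, all on the opposite strand, of which the first 2 share 1 base, and a CCAAT box 75 to 71 bases before the start. Upstream of Ptger2 there was a CCAAT box 160 to 156 bases before the start and no GC box. The CCAAT box occurred in 33.8% of all promoters of this length, and it was the only motif found in both windows. The Ptger4 sequence was 66.8% G and C with 19 CpG pairs, while that of Ptger2 was 38% with 3. Neither held the cAMP response element core, which 17.8% of promoters held, nor the E-box (6.02%) or the TATA box (12.4%). These matches describe letters only, and no binding was measured.

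The coordinates of Ptger4 are chr15:5206661-5244187 on the minus strand, and those of Ptger2 are chr14:44988195-45003820 on the plus strand, where the RefSeq start lies upstream of the GENCODE start. Exons of Ptger4 share 82 bases with Ttc33 and 1015 bases with the pseudogene Gm15937, both on the opposite strand. The strand setting of the counting is not given in the sources used here, so reads of these genes may not be told apart. Ttc33 had rescaled FPKM of 25.5 to 32.9 in Ctrl, 26.5 to 35.1 in CIA and 25.8 to 30.2 in CIA+THz, which overlapped in all 3 groups. Exons of Ptger2 share 246 bases with the antisense gene Gm17173 and 144 bases with Gm49364. Both receptors are known from lymphocytes and from myeloid cells. The 11 T cell markers, which include Cd3e and Lat, summed to 260 to 333 in Ctrl, 243 to 278 in CIA and 270 to 347 in CIA+THz, and CIA+THz had the higher mean for all 11 against CIA. Of the 9 B cell markers 8 were higher and all 7 NK cell markers were higher in the same comparison, while all 8 neutrophil markers and 7 of 9 monocyte markers were lower, which with FPKM as deposited became 6 of 8 and 4 of 9. Marker levels are relative to the other RNA of a library and are not cell numbers. By blood cell counts, the paper reported fewer lymphocytes, neutrophils and monocytes in CIA+THz than in CIA. The part of these cell types in the receptor values was not tested.

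**Figure D2:**
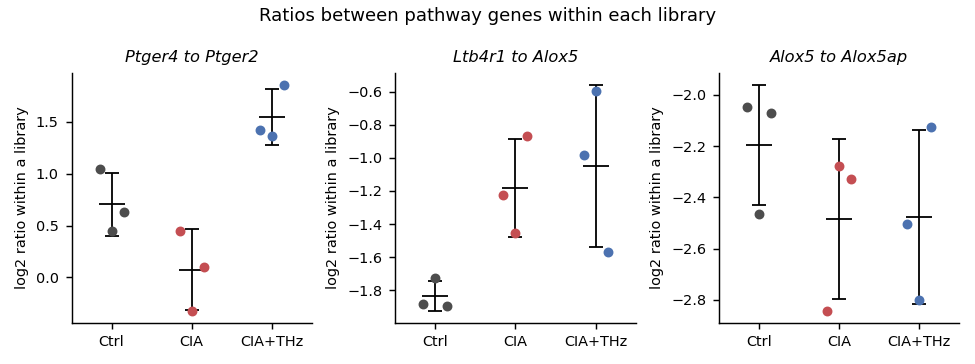
The log2 ratio of 2 genes within each library (vertical axes, each with its own scale) for Ptger4 to Ptger2, Ltb4r1 to Alox5 and Alox5 to Alox5ap in Ctrl, CIA and CIA+THz. Points are libraries, long ticks and bars are the mean and SD of 3 libraries. The ratio of Ptger4 to Ptger2 averages 1.55 in CIA+THz, 0.07 in CIA and 0.71 in Ctrl.

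The leukotriene genes Alox5 and Alox5ap were, with Ptgs1, the most abundant of the list, and both had their lowest mean in CIA+THz. Alox5ap, whose protein presents arachidonic acid to 5-lipoxygenase, had rescaled FPKM of 294, 360 and 269 in Ctrl, 362, 418 and 334 in CIA and 280, 282 and 237 in CIA+THz (chr5:149264767-149288153, plus strand). All 3 CIA+THz libraries lay below all 3 CIA libraries and overlapped with Ctrl. With FPKM as deposited, they overlapped with CIA as well. CIA differed from Ctrl by a log2 fold change of 0.28 ± 0.15 (SE, unadjusted p = 0.113), and CIA+THz differed from CIA by -0.48 ± 0.12 (unadjusted p = 0.00636) and from Ctrl by -0.20 ± 0.14 (unadjusted p = 0.192). The change against CIA had the smallest p of the 10 genes in that comparison and an adjusted p of 0.236 by limma. It did not reach the fold part of the criterion, and with FPKM as deposited it was -0.20 (unadjusted p = 0.208). The change against Ctrl turned to 0.11 with FPKM as deposited. The antisense gene Gm19719 shares 189 exonic bases with Alox5ap.

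Alox5 itself, at chr6:116410077-116461178 on the minus strand, had rescaled FPKM of 71.0, 65.0 and 63.9 in Ctrl, 50.3, 86.2 and 66.3 in CIA and 49.4, 40.3 and 54.2 in CIA+THz. The CIA libraries were spread around the Ctrl values, and all 3 CIA+THz libraries lay below all 3 Ctrl libraries, but not with FPKM as deposited. On the log2 scale, CIA differed from Ctrl by -0.01 ± 0.19 (SE), and CIA+THz differed from CIA by -0.47 ± 0.21 (unadjusted p = 0.0608) and from Ctrl by -0.48 ± 0.13 (unadjusted p = 0.00657, adjusted p = 0.141 by limma). The change against Ctrl was -0.18 (unadjusted p = 0.271) with FPKM as deposited. The log2 ratio of Alox5 to Alox5ap averaged -2.20 in Ctrl and -2.48 in both CIA and CIA+THz, with exact permutation p-values of 0.3, 1 and 0.2 over the 3 comparisons.

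Ltb4r1, the gene of the high-affinity leukotriene B4 receptor BLT1, was higher in CIA than in Ctrl (chr14:55765962-55768494, plus strand). Its rescaled FPKM was 19.2, 19.6 and 17.1 in Ctrl, 21.5, 31.4 and 36.3 in CIA and 25.0, 26.7 and 18.2 in CIA+THz. All 3 CIA libraries lay above all 3 Ctrl libraries, and CIA+THz overlapped with both. The mean of 29.7 ± 7.56 (SD, n = 3) in CIA was 1.60 times that in Ctrl, 18.6 ± 1.31. The log2 fold change of 0.64 ± 0.20 (SE) had an unadjusted p of 0.0154 and an adjusted p of 0.193 by limma, and fell just short of the fold part of the criterion. It passed with FPKM as deposited (0.67), without Ctrl library 2 (0.68) and without CIA library 1 (0.86). Against CIA, the CIA+THz value was -0.34 ± 0.23 (unadjusted p = 0.189). The log2 ratio of Ltb4r1 to Alox5 was -1.88, -1.73 and -1.89 in Ctrl, -1.22, -1.45 and -0.87 in CIA and -0.98, -0.59 and -1.57 in CIA+THz, so the receptor stood higher against the enzyme in all 6 libraries of arthritic mice than in any Ctrl library. The differences of 0.65 and 0.79 from Ctrl each had an exact permutation p of 0.1 (0.24 adjusted over the 12 tests).

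Alox15, a lipoxygenase known from eosinophils and macrophages, had rescaled FPKM of 18.1, 19.1 and 28.4 in Ctrl, 37.4, 36.4 and 26.6 in CIA and 25.9, 20.1 and 32.9 in CIA+THz (chr11:70344152-70352031, minus strand). Ctrl and CIA overlapped only through the highest Ctrl and the lowest CIA library, and CIA+THz overlapped with both. CIA differed from Ctrl by 0.62 ± 0.22 (SE) on the log2 scale, with an unadjusted p of 0.0234 and an adjusted p of 0.220 by limma, short of the fold part of the criterion. It was 0.83 without Ctrl library 3 and 0.78 without CIA library 3, past the criterion in both cases. CIA+THz differed from CIA by -0.36 ± 0.21 (unadjusted p = 0.139). The 5 eosinophil markers summed to 13.4 to 19.0 in Ctrl, 14.7 to 19.9 in CIA and 17.0 to 20.2 in CIA+THz, and all 5 had a higher mean in CIA than in Ctrl. Their sums overlapped in all 3 groups, and their defining markers Epx and Prg2 reached at most 0.529 in any library. Their part in the Alox15 values was not tested.

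Markers of the myeloid cells that carry the leukotriene genes differed between groups as well. The 8 neutrophil markers, of which S100a8 and S100a9 made up most of the sum, summed to 12382 to 20912 in Ctrl, 14225 to 18405 in CIA and 10529 to 11982 in CIA+THz. After rescaling, all 3 CIA+THz libraries lay below every other library, and all 8 markers had a lower mean in CIA+THz than in CIA (6 with FPKM as deposited). The separation of the sums rested on the rescaling, and with FPKM as deposited the neutrophil sums of CIA+THz overlapped with those of both other groups. The 9 monocyte markers summed to 543 to 579 in Ctrl, 779 to 885 in CIA and 656 to 700 in CIA+THz, with no overlap between any 2 groups, and all 9 were higher in CIA than in Ctrl, also with FPKM as deposited. The monocyte sums of CIA and CIA+THz overlapped with FPKM as deposited. Of the 4 genes of immature neutrophil granules, 3 were highest in CIA and lowest in Ctrl, with Camp at 1.64 to 7.61 in Ctrl, 68.6 to 155 in CIA and 18.6 to 37.3 in CIA+THz, and Ltf at 3.19 to 3.85, 29.8 to 122 and 11.9 to 20.5. Ngp had the same order, while Lcn2 was 243 to 413 in Ctrl, 182 to 317 in CIA and 155 to 206 in CIA+THz. No listed marker of these cell types was at 0 in all libraries. The part of neutrophils and monocytes in the levels of Alox5, Alox5ap, Ltb4r1 and Alox15 was not tested.

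**Figure D3:**
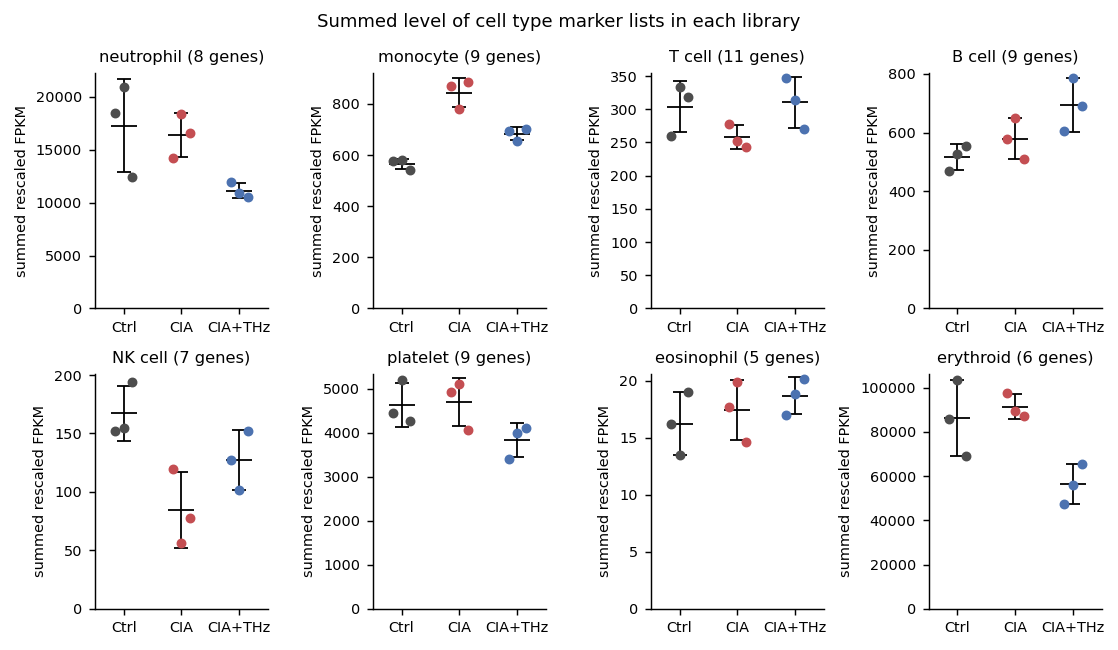
Summed rescaled FPKM (linear vertical axes, each starting at 0 with its own scale) of 8 marker gene lists in Ctrl, CIA and CIA+THz. Points are libraries, long ticks and bars are the mean and SD of 3 libraries. The neutrophil sum is 10529 to 11982 in CIA+THz and at least 12382 in the other libraries, a separation that FPKM as deposited does not show. The monocyte sum is 779 to 885 in CIA and 543 to 579 in Ctrl.

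In CIA against Ctrl, the 10 genes split evenly, with 5 higher and 5 lower fold changes and a median log2 fold change of 0.03, against -0.01 for all genes tested. With FPKM as deposited, 7 were higher and 3 lower. Hpgds was the only gene past the criterion, a call against a group listed at 0 whose size is set by the added 0.1 (-0.49 with an added 1 and -5.37 with an added 0.01). It entered the test through its Ctrl libraries. An unadjusted p under 0.05 was found for 3 genes (Hpgds, Ltb4r1 and Alox15), against 17.3% of all genes. Without Ctrl library 2 or CIA library 1, 3 genes passed the criterion, and without Ctrl library 3 or CIA library 3, 2 passed. The groups did not overlap for Ltb4r1 and Hpgds, while 23.5% of all genes did not overlap. None of the 10 genes had an adjusted p under 0.05 by limma, as 0.154% of all genes had. Counts over 10 genes are small, and whether they differ from these shares was not tested.

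In CIA+THz against CIA, 3 genes were higher and 7 lower, with a median of -0.36 against 0.03 for all genes tested. The split was the same with FPKM as deposited, with a median of -0.09 against 0.29. Ptger4 alone passed the criterion, and 4 genes (Ptger4, Alox5ap, Ptger2 and Ptgs1) had an unadjusted p under 0.05, against 13.2% of all genes. Of these 4, only Ptger4 kept such a p with FPKM as deposited. Ptger4, Ptger2 and Alox5ap did not overlap between the groups, against 19.6% of all genes. With FPKM as deposited, Ptger2 and Alox5ap overlapped and Ptger4 did not. None of the 10 genes, and 0% of all genes tested (0 genes, with 1634 at an unadjusted p under 0.05), had an adjusted p under 0.05 by limma. Without CIA+THz library 1, 3 of the 10 genes passed the criterion, which were Ptger4, Ptger2 and Ptgs2. Without CIA library 2, the 2 that passed were Ptgs2 and Ptges.

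In CIA+THz against Ctrl, 3 genes were higher and 7 lower, with a median of -0.34 against 0.04 for all genes tested, and with FPKM as deposited 4 were higher and 6 lower, with a median of -0.10 against 0.33. None of the 10 genes passed the criterion, against 7.88% of all genes. Alox5 and Ptgs1 had an unadjusted p under 0.05, against 18.1% of all genes, and Alox5, Ptgs1 and Ptger2 did not overlap between the groups, against 24% of all genes. With FPKM as deposited, Alox5, Ptgs1 and Ptger2 each overlapped. None had an adjusted p under 0.05 by limma, as 0.105% of all genes had. Leaving out Ctrl library 1 brought Ptges past the criterion (-1.61), and leaving out CIA+THz library 3 brought Hpgds past it (-2.34), both near the lower limit of the data. This comparison shares its libraries with the other 2 comparisons.

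**Figure D4:**
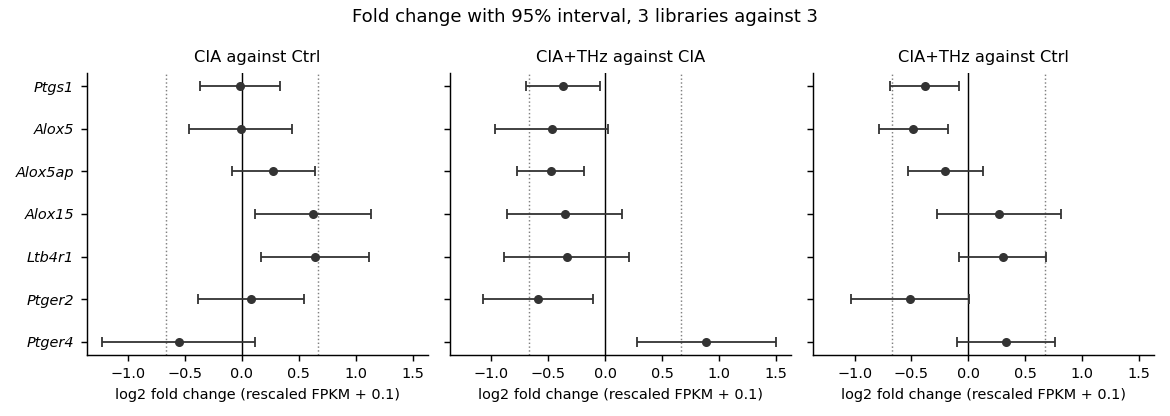
The log2 fold change of rescaled FPKM + 0.1 (horizontal axes) with its 95% interval for the 7 genes above 0 in every library, in each of the 3 comparisons between groups. The dotted lines mark an absolute log2 fold change of 0.67. Ptger4 in CIA+THz against CIA lies at 0.89 and the other 6 genes lie between -0.59 and -0.34.

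The wider pathway was covered by 36 further genes, from the phospholipases that release arachidonic acid to the remaining receptors, of which 27 were tested and 9 were too low. In CIA against Ctrl, Dpep2 rose and Ggt1 fell, which is 2 of 27 against the 9.04% of all genes past the criterion, and the median over the 27 was -0.08. CIA+THz against CIA gave a rise of Pla2g4b (1 of 27, against 4.54% of all genes), 16 were higher and 11 lower, and the median was 0.10. With FPKM as deposited, 20 were higher and 7 lower there. In CIA+THz against Ctrl, Dpep2 and Alox8 passed the criterion with higher values (2 of 27, against 7.88% of all genes). There 12 were higher and 15 lower, which became 21 and 6 with FPKM as deposited. Across the 3 groups, 5 of the 27 had an unadjusted p under 0.05, against 21.3% of all genes: Dpep2, Ggt1, Pla2g4a, Pla2g4b and Cyp4f18, the last of which encodes an enzyme that inactivates leukotriene B4 in mouse neutrophils and is named after its values were seen. None of these 4 shares was above that of all genes.

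Dpep2 and Ggt1 act one after the other on the cysteinyl leukotrienes, where gamma-glutamyl transferases turn leukotriene C4 into D4 and membrane dipeptidases turn D4 into E4. Dpep2 had rescaled FPKM of 2.18, 3.49 and 5.88 in Ctrl, 16.9, 13.7 and 14.3 in CIA and 11.0, 14.5 and 9.06 in CIA+THz. Every library of arthritic mice lay above every Ctrl library, and the mean was 3.89 times higher in CIA and 3.00 times higher in CIA+THz than in Ctrl. The log2 fold change was 2.04 ± 0.34 (SE) in CIA against Ctrl (adjusted p = 0.0669 by limma) and 1.64 ± 0.36 in CIA+THz against Ctrl (adjusted p = 0.115 by limma), and across the 3 groups the adjusted p was 0.0170 by limma. The sum of the 9 monocyte markers was also higher in CIA than in Ctrl, and the part of monocytes in the Dpep2 values was not tested. Ggt1 had rescaled FPKM of 7.76, 9.14 and 3.95 in Ctrl, 0.783, 3.96 and 3.54 in CIA and 5.73, 5.56 and 3.85 in CIA+THz, with Ctrl and CIA overlapping. Its change in CIA against Ctrl, -1.498 ± 0.63 (unadjusted p = 0.0471), was -0.79 without CIA library 1, -1.38 without Ctrl library 1, -1.26 without Ctrl library 2 and -1.81 without CIA library 3, and it passed the criterion in none of these 4 cases. Ggt5, another gamma-glutamyl transferase of the wider list, is named after its values were seen. Its mean over all libraries was 14.6, against 4.92 for Ggt1. In CIA against Ctrl it changed by -0.37 ± 0.25 (SE, unadjusted p = 0.176 by limma) and did not pass the criterion. Ltc4s, the synthase of leukotriene C4, was listed at 0 in 7 libraries, with 0.388 in CIA library 3 and 0.0456 in CIA+THz library 1.

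Among the phospholipases, Pla2g4a, the main supplier of arachidonic acid in leukocytes and platelets, had rescaled FPKM of 18.3, 20.4 and 15.1 in Ctrl, 13.7, 13.9 and 14.0 in CIA and 12.9, 11.1 and 12.6 in CIA+THz. The 3 groups did not overlap, in the order Ctrl, CIA, CIA+THz, but with FPKM as deposited CIA+THz overlapped with both other groups. Its change in CIA+THz against Ctrl was -0.54 ± 0.15 (SE, unadjusted p = 0.00741), short of the fold part of the criterion, and -0.24 (unadjusted p = 0.144) with FPKM as deposited. Pla2g4b, a lower-expressed relative, had 0.740, 0.308 and 1.06 in Ctrl, 0.432, 0.558 and 0.298 in CIA and 1.17, 1.66 and 1.42 in CIA+THz. All 3 CIA+THz libraries lay above every other library, and the change against CIA was 1.54 ± 0.34 (SE, unadjusted p = 0.00300, adjusted p = 0.210 by limma).

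The platelet lipoxygenase Alox12 was more abundant than any of the 10 genes, with rescaled FPKM of 407, 543 and 429 in Ctrl, 431, 499 and 374 in CIA and 337, 354 and 379 in CIA+THz. As with Ptgs1, all 3 CIA+THz libraries lay below all 3 Ctrl libraries and overlapped with CIA, and they overlapped with Ctrl with FPKM as deposited. Its change in CIA+THz against Ctrl was -0.36 ± 0.14 (SE, unadjusted p = 0.0340) and -0.05 (unadjusted p = 0.673) with FPKM as deposited. Tbxas1, the thromboxane synthase that works after Ptgs1 in platelets, had 9.31 to 13.1 in Ctrl, 7.60 to 10.02 in CIA and 8.41 to 10.5 in CIA+THz, with all groups overlapping. Alox8 was listed at 0 in 2 Ctrl libraries (0.456 in library 2) and in CIA library 1, with 2.05 and 1.20 in the other CIA libraries and 0.867, 0.756 and 1.34 in CIA+THz. Its fitted change against Ctrl (unadjusted p = 0.00985, adjusted p = 0.158 by limma) depends on the added 0.1, since most Ctrl values were 0.

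The last 3 named steps of the pathway showed overlapping groups. Lta4h, which makes leukotriene B4 from the product of Alox5, lay at 18.9 to 28.3 in Ctrl, 21.2 to 25.6 in CIA and 18.3 to 25.2 in CIA+THz. Hpgd, which degrades prostaglandins, lay at 2.75 to 5.02 in Ctrl, 2.45 to 5.64 in CIA and 4.30 to 5.77 in CIA+THz. Cysltr1, a receptor of the cysteinyl leukotrienes, lay at 2.97 to 5.19, 3.995 to 5.97 and 3.40 to 4.09 in the same order.

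**Figure D5:**
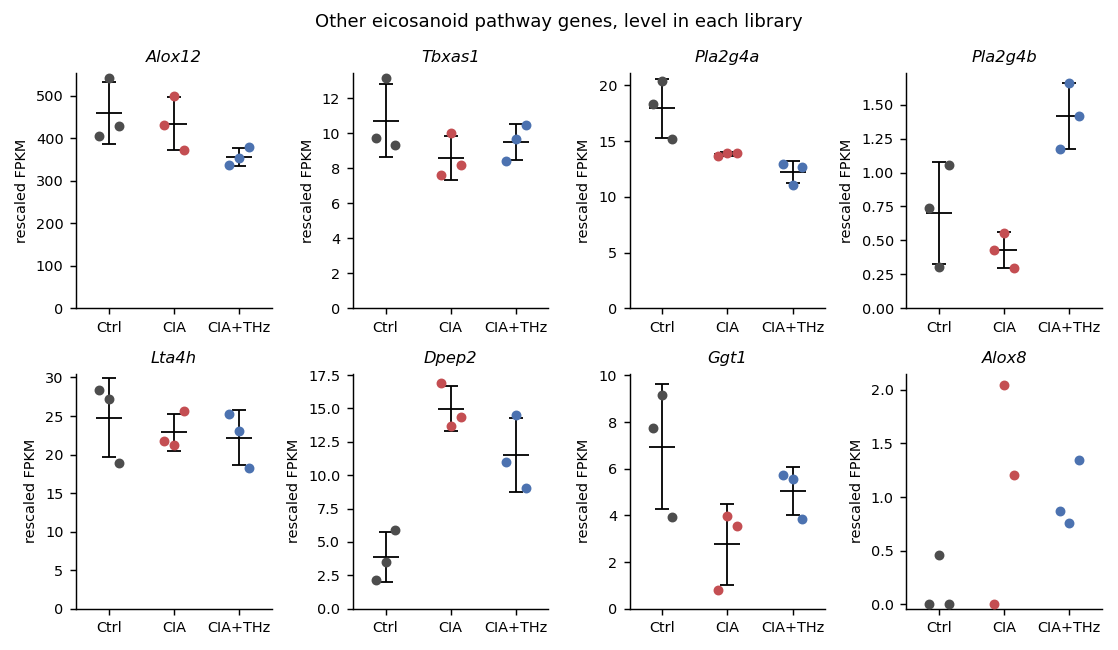
Rescaled FPKM (linear vertical axes, each with its own scale) of 8 further genes of the pathway in Ctrl, CIA and CIA+THz. Points are libraries, long ticks and bars are the mean and SD of 3 libraries, and no mean is drawn for Alox8, which was listed at 0 in some libraries. Dpep2 lies at 2.18 to 5.88 in Ctrl and at 9.06 to 16.9 in the other 2 groups.

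For each of the 7 members above a mean rescaled FPKM of 1, the 2 genes of most similar profile were sought among 9747 genes, by the root-mean-square difference between log2 profiles centred on their mean over the 9 libraries. The closest were H2bc4 and Dynlt1c for Ptgs1 (differences of 0.049 and 0.050), Aldoa and Ccnd3 for Alox5ap (0.085 and 0.089) and Spidr and Pram1 for Alox5 (0.087 and 0.098). They were H13 and Spi1 for Ltb4r1 (0.134 and 0.147), Tnfsf14 and Rnf113a2 for Ptger2 (0.142 in both), Ager and Clcc1 for Alox15 (0.146 and 0.156) and Rmnd1 and Fgfr1op for Ptger4 (0.147 and 0.193). The median difference from each member to all genes compared was 0.387 to 0.560. None of the 10 genes was among the closest 2 of another.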

How the data were processed

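Blood RNA of 3 Ctrl, 3 CIA and 3 CIA+THz libraries was prepared with the TruSeq kit and sequenced paired-end on an Illumina HiSeq instrument. A matrix of FPKM for 20926 gene symbols was deposited by the authors, with each library in its own column. The submitters' processing notes name bcl2fastq 2.0, HISAT2, StringTie, DESeq2 and mm10, with no role or order, and the annotation, strand setting and filters are not given in the sources used here. FPKM holds no counts, so counting error could not be computed, and only relative depth was read from the steps between genes under 0.6 FPKM.

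For rescaling, 1 median-of-ratios factor per column was computed from the 10312 genes that no library lists at 0. Genes whose rescaled FPKM averaged 0.1 or more were tested on log2(rescaled FPKM + 0.1) with limma 3.58.1 (lmFit, eBayes with a trend) in R 4.3.3, across groups by the moderated F-test and between groups on 6 libraries, with adjustment over all 12366 genes. Ratios between genes used the exact two-sided permutation test. The scripts were tested on simulated data. Gene coordinates are from GENCODE M21 on GRCm38, and upstream sequences are from RefSeq on GRCm38.p6, which held 8 of the 10 genes and not Alox5ap or Alox15. The 10 genes, the 36 further pathway genes and the marker lists were chosen with earlier results of these data known. Named pathway genes were those past the criterion between any 2 groups, and Lta4h, Ltc4s, Tbxas1, Alox12, Pla2g4a, Hpgd and Cysltr1 in any case. Cyp4f18, Ggt5, Ptger1, Ptger3, Ptges2 and Ptges3 were added after their values were seen. The marker lists also held 4 immature neutrophil granule genes, with summed rescaled FPKM of 296 to 509 in Ctrl, 546 to 1475 in CIA and 326 to 443 in CIA+THz (3 of the 4 were higher in CIA+THz than in Ctrl, and the fourth, Lcn2, makes up most of the Ctrl sums). They held 6 erythroid genes, with 69086 to 103617, 87133 to 97839 and 47440 to 65437, of which Alas2 was 99.2% to 99.7%. Without it the sums were 332 to 675, 227 to 456 and 266 to 373, and 5 of the 6 were lower in CIA than in Ctrl. Ahsp was also on this list but absent from the matrix under that symbol, and the hemoglobin genes were not on the list. Pearson correlations across the genes tested were 0.934 to 0.963 within groups and 0.923 to 0.957 between groups, and no 2 libraries were duplicates.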

Additional observations from a re-analysis of the deposited data

How the results depend on the processing

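FPKM carries no counts, so the precision of the low genes (Ptgs2, Ptges, Hpgds, Alox8, Pla2g4b, Ptger3) is unknown, and their values rest on few fragments. Of 544 recomputed single-gene values, 504 kept their direction and their side of the criterion, 10 lost it, 15 gained it and 15 changed sign, and the cause of each was not tested unless the setting itself leaves genes or libraries out. No gene of the 10 or of the 36 passed an adjusted p under 0.05 by limma in any comparison between 2 groups at the reported settings, so those counts were 0, as was that of the 10 genes across the 3 groups. Over other settings, the adjusted p by limma in CIA against Ctrl was 0.00862 (3 groups in 1 fit) and 0.0248 (mean of at least 1) for Dpep2, and 0.0177 (all genes above 0) and 0.0193 (no trend) for Hpgds, and in CIA+THz against Ctrl it was 0.0383 for Dpep2 (3 groups in 1 fit). Those of Hpgds compare low Ctrl values with CIA libraries all listed at 0.

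The number of the 10 genes past the criterion in CIA against Ctrl (1) was 2 with FPKM as deposited, 0 with an added 1, 0 with a mean of at least 1 (which leaves Hpgds out) and 1 to 3 with 1 library left out. In CIA+THz against CIA (1) it was 2 with FPKM as deposited, 2 with an added 0.01 and 1 to 3 with 1 library left out. In CIA+THz against Ctrl (0) it was 0 to 1 with 1 library left out. Across the 3 groups (6) it was 3 with FPKM as deposited, 3 without the trend, 3 in the analysis of variance on linear values and 3 to 6 with 1 library left out. The 36 further genes gave 2 in CIA against Ctrl, and 1 with an added 0.01, 1 with all genes above 0, 1 without the trend and 1 to 4 with 1 library left out. In CIA+THz against CIA they gave 1, and 2 with FPKM as deposited, 0 with a mean of at least 1 and 1 to 2 with 1 library left out. In CIA+THz against Ctrl they gave 2, and 1 with a mean of at least 1 and 2 to 6 with 1 library left out (6 without Ctrl library 3).

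With FPKM as deposited the sign turned for Ptgs1 (0.014) and Alox5 (0.018) in CIA against Ctrl, for Alox5ap (0.11) in CIA+THz against Ctrl and for the log2 ratio of Ptgs2 to Ptgs1 in CIA+THz against Ctrl (-0.045, from 0.10). With an added 0.01 it turned for Ptgs2 in CIA+THz against Ctrl (0.46). With 1 library left out, the values that changed sign ranged from -0.91 to 1.16 for Ptges, -0.20 to 0.18 for Alox5 and -0.11 to 0.094 for Ptgs1 in CIA against Ctrl, and from -1.45 to 0.33 for Ptgs2 and -1.61 to 0.11 for Ptges in CIA+THz against Ctrl. The ratios did so from -0.17 to 0.17 for Alox5 to Alox5ap and -0.092 to 0.39 for Ltb4r1 to Alox5 in CIA+THz against CIA, and from -1.17 to 0.75 for Ptgs2 to Ptgs1 in CIA+THz against Ctrl. The calls of Dpep2, Pla2g4b and Alox8 held under every setting that tested them, the adjustment aside. A mean of at least 1 left Pla2g4b and Alox8 out of the test. For Alox8 the other settings add no evidence, since its test is not independent of the filter on low values.

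The replicate numbers of the labels did not pair the libraries: deviations of same-numbered libraries from their group means correlated between -0.052 and 0.031, and 3 of 9 libraries correlated best with their own number. With the replicate block, the 36 further genes gave 1 in CIA against Ctrl, in place of 2 (Ggt1 was lost), and the 10 genes gave 4 across the 3 groups, in place of 6. Between groups the 10 genes stayed at 1, 1 and 0, and the 36 further genes stayed at 2 in CIA+THz against Ctrl.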
